A study of Mus musculus with 12 samples.

Results

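*Tox* and *Tox2* encode a pair of nuclear factors of the TOX family, and the 2 genes are described here in progenitor CD8+ T cells that lacked or kept the histone demethylase UTX. They were taken by symbol from the 25860 genes of the RNA-seq table, and their chromatin was followed through the 25 peaks that carry either gene name among the 23932 peaks of the ATAC-seq table. The series holds 6 RNA-seq and 6 ATAC-seq libraries, 3 per genotype and assay, of CD8+ T_prog_ cells sorted from the pancreatic lymph nodes (pLNs) of female mice, and asks what UTX does to expression and chromatin in these cells. The labels give the sort as Ly108+CXCR6-, while the methods give Ly108+CD39-. ATAC-seq measures open chromatin as the density of transposase insertions.

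All mice carried the NY8.3 TCR transgene on the NOD background (*NOD-TCR 8.3*), so that nearly all CD8+ T cells see the same β cell antigen, IGRP. In the UTX TCD group, both floxed alleles of *Kdm6a* (the gene of UTX) were deleted in T cells by Cre under the *Lck* promoter, which is active from the thymus onward. The WT group was UTX-sufficient *NOD-TCR 8.3* mice, and the methods name Cre-negative littermates as the WT controls of the parent NOD line. The age of the mice that gave the sequenced libraries is not given in the sources used here.

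TOX proteins bind DNA through a single HMG box that reads DNA structure more than a fixed base sequence. TOX is needed for the CD4 lineage in the thymus and for the development of NK cells and other innate lymphoid cells, and in CD8+ T cells under chronic antigen it is induced through calcineurin and NFAT and sustains the exhausted program together with its inhibitory receptors. TOX2 is best known from T follicular helper (Tfh) cells, where it works beside BCL6, from NK cell maturation, and as a partner of TOX in T cells under chronic stimulation.

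The RNA-seq libraries held 146, 145 and 194 megareads assigned to genes in WT replicates 1, 2 and 3, and 61.5, 175 and 187 megareads in UTX TCD replicates 1, 2 and 3. *Kdm6a* was at 28365, 28949 and 29172 normalized counts (reads divided by the size factor of each library) in WT and at 24158, 24792 and 24579 in UTX TCD. The groups did not overlap, with a log2 fold change of −0.23 (adjusted p = 0.00114 and SE 0.037, limma). These counts are summed over the whole gene and the sources used here do not give the deleted exons, so that this level does not check the deletion. *Uty*, the Y-linked relative of *Kdm6a*, had at most 1 read in any library.

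The labelled cell type was checked against marker lists. *Cd3e*, *Cd3d*, *Cd3g*, *Cd8a* and *Cd8b1* lay between 54935 and 313000 normalized counts in every library, and 0 of these 5 genes were called with limma, edgeR or DESeq2 (4 at an unadjusted p under 0.05 in limma). With no fold limit, 4 passed by adjusted p, *Cd3e* at a log2 fold change of 0.17, *Cd3d* at −0.28, *Cd3g* at −0.26 and *Cd8b1* at −0.37. The summed level of the 5 was 766577, 728119 and 746926 normalized counts in WT and 761142, 741225 and 675806 in UTX TCD, with *Cd8a* the most abundant. *Cd4* ranged from 41.3 to 104 normalized counts. The NK cell marker *Ncr1* was at 0 in 4 of the 6 libraries and at 6.93 or less in the others, and the B cell factor *Pax5* was at 11.1 or less. Some other members of their lists were far higher. Of the B cell list, *Cd79b* had means of 2299 in WT and 583 in UTX TCD, and *Cd79a* 388 and 438. *Kit*, of the NK cell and innate lymphoid cell list, had means of 3060 in WT and 1580 in UTX TCD. WT replicate 2 stood apart for some activation and cytokine receptor genes, with *Il7r* at 79127 normalized counts against 38077 and 37105 in the other WT libraries. UTX TCD replicate 3 was the highest of the 6 for *Myb* (27053).

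*Tox* was higher in each UTX TCD library than in any WT library. It was at 12218, 12533 and 11782 normalized counts in WT replicates 1, 2 and 3, and at 17039, 16316 and 17000 in UTX TCD replicates 1, 2 and 3. The group means were 12178 ± 377 and 16785 ± 407 (SD, n = 3 each), a ratio of 1.38. Among the 14459 genes tested, 25.8% had all 3 UTX TCD libraries above all 3 WT libraries. In the fit across all tested genes, the log2 fold change of *Tox* (UTX TCD over WT, on the log2(normalized count + 1) scale) was 0.46 (SE 0.043) with an adjusted p of 4.88e-05 (limma).

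A gene was called when its adjusted p was under 0.05 and its log2 fold change exceeded 0.5 in size. *Tox* met the first condition, as 40.7% of tested genes did, but fell just short of the second and was therefore not called. When each library was instead scaled to the same total, its log2 fold change was 0.53 and it was called. That scaling moves all genes alike: the median log2 fold change of all tested genes went from −0.00018 to 0.062. The call under it is therefore not read as a result about *Tox*. Its level rested on 7575 reads in the shallowest library and on 23062 in UTX TCD replicate 3, so that counting error was at most 2.26% of the count (the half-width of the exact 95% Poisson interval). Because the libraries are bulk, more *Tox* RNA per cell and more cells with *Tox* cannot be told apart, and the same holds for every other gene named.

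*Tox2* was far less abundant and differed by a larger factor. WT replicates 1, 2 and 3 had 65.4, 65.2 and 64.1 normalized counts of *Tox2*, and UTX TCD replicates 1, 2 and 3 had 198, 191 and 237. The WT libraries were nearly identical, the UTX TCD libraries were all well above them, and replicate 3 was the highest. The means were 64.9 ± 0.706 in WT and 209 ± 25.2 in UTX TCD (SD, n = 3 each), a ratio of 3.22.

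*Tox2* was called higher. Its fitted log2 difference was 1.66, the SE was 0.17 and the adjusted p was 9.72e-05 (limma). In all, 17.6% of tested genes were called and 10.5% were called higher. Its fold change ranked 356 among the 1518 genes called higher, and 2.55% of all tested genes had a larger log2 fold change. Leaving out UTX TCD replicate 3 gave 1.57.

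The reads behind *Tox2* were few. There were 66, 66 and 84 of them in the WT libraries and 88, 238 and 322 in the UTX TCD libraries. UTX TCD replicate 1 had the smallest depth of the 6 and still more *Tox2* reads than any WT library. Its 88 reads have an exact 95% Poisson interval of 70.6 to 108, which overlaps that of the 84 reads of WT replicate 3 (67.0 to 104), a library of greater depth. In counts per megaread assigned (CPM), *Tox2* was at 0.451, 0.457 and 0.434 in WT and at 1.43, 1.36 and 1.72 in UTX TCD.

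**Figure D1:**
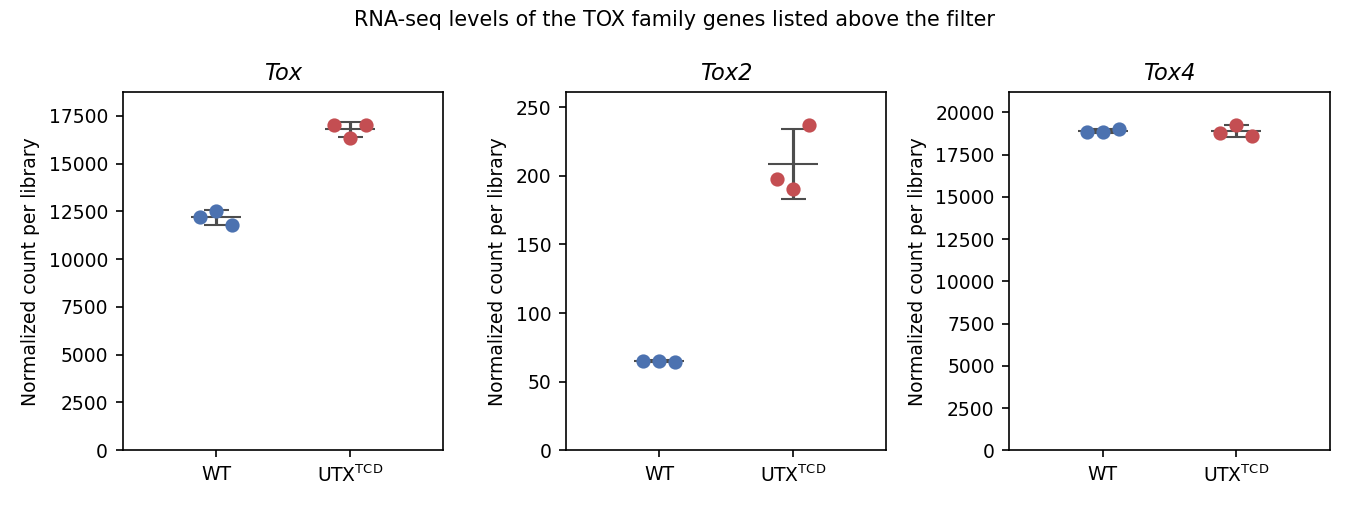
Normalized counts (y axes, linear and from 0, each panel with its own scale) of *Tox*, *Tox2* and *Tox4* in WT and UTX TCD T_prog_ cells (x axes); each point is a library, and the bar and whiskers are the mean and SD of 3 libraries. The UTX TCD points lie above all WT points for *Tox* (16316 or more against 12533 or less) and *Tox2* (191 or more against 65.4 or less) and overlap with them for *Tox4*.

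The pair therefore moved by different amounts. The log2 ratio of *Tox2* to *Tox*, each as the normalized count plus 1, was −7.52, −7.57 and −7.50 in the WT libraries and −6.42, −6.41 and −6.16 in the UTX TCD libraries. The difference between the group means was 1.20 on the log2 scale, so that *Tox2* gained on *Tox* by a factor of 2.30. Every UTX TCD library was above every WT library, and the two-sided exact permutation test gave p = 0.10, the smallest value that 3 against 3 libraries allow.

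Levels of the paralogs were compared per kilobase of exon, with the merged exons of all RefSeq transcripts as the length (4.558 kb for *Tox*, 4.617 kb for *Tox2*, 4.458 kb for *Tox4*). On this scale *Tox* was at 2672 ± 82.8 normalized counts per kilobase in WT and 3683 ± 89.3 in UTX TCD (SD, n = 3). *Tox2* was at 14.0 ± 0.153 and 45.2 ± 5.45. The level of *Tox* thus exceeded that of *Tox2* by a factor of 190 in WT and of 81.5 in UTX TCD. *Tox2* was the minor transcript of the pair in both genotypes.

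*Tox4*, the broadly expressed member of the family that works with protein phosphatase 1, overlapped between the genotypes. It was at 18828, 18820 and 19003 normalized counts in WT and at 18778, 19277 and 18613 in UTX TCD, and its fitted log2 difference was 0.00026 (adjusted p = 0.996 and SE 0.037, limma), or 0.063 with libraries scaled to the same total. Its level per kilobase was 4236 ± 23.2 in WT and 4237 ± 77.5 in UTX TCD, which exceeded that of *Tox* by a factor of 1.59 in WT and 1.15 in UTX TCD. The order per kilobase was the same in every library, with *Tox4* first, *Tox* next and *Tox2* last. *Tox3*, best known from neural and breast epithelial cells, had 2 reads in WT replicate 2, 2 in UTX TCD replicate 2 and 0 in the other 4 libraries, and was not tested. Of the 4 TOX family genes, 1 was called higher (*Tox2*) and 0 lower.

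The genes most like *Tox* across the 6 libraries were sought among 13195 tested genes with a proper symbol, as those with the smallest root-mean-square distance between mean-centred log2 profiles. They were *Eif4ebp1*, the translation repressor 4E-BP1 (distance 0.023), *Jmjd7* (0.029), *Cdc7*, the kinase that fires replication origins (0.030), *Xrcc3*, a homologous recombination factor (0.031), and *Cdin1* (0.031). *Eif4ebp1*, the closest, was at 550, 566 and 539 normalized counts in WT and at 769, 709 and 756 in UTX TCD. The log2 fold changes of these 5 genes ran from 0.43 to 0.50, and like *Tox* none passed the fold limit.

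The 5 genes nearest to *Tox2* were *Farp1* (0.068), *Alpl*, which encodes tissue-nonspecific alkaline phosphatase (0.068), *Pdgfb*, a growth factor chain (0.086), *Gimap7*, a GTPase of lymphocytes (0.092), and *Tspoap1* (0.095). *Farp1* was at 195, 222 and 201 normalized counts in WT and at 616, 567 and 704 in UTX TCD. All 5 were called higher, with log2 fold changes from 1.54 to 1.76. *Tox* and *Tox2* were not close on this measure, at a distance of 0.61 from each other. It ranks genes by the shape and size of change together, over only 6 libraries.

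The neighbours of *Tox* and *Tox2* were taken as the nearest listed gene on each side with a mean of at least 10 normalized counts. *Tox* spans chr4:6686353-6991557 on the minus strand (GRCm38, the assembly called mm10). Beyond its 3′ end, *Nsmaf* lies 232 kb away and was at 22370, 22109 and 23361 normalized counts in WT and 25450, 26148 and 27283 in UTX TCD. It was not called, at a log2 fold change of 0.22 (adjusted p = 0.00399 and SE 0.044, limma). Beyond the 5′ end the nearest such gene was *Car8*, 1150 kb away and barely expressed, at 4.94 to 9.91 normalized counts in WT and 26.4 to 34.6 in UTX TCD. Its WT mean was under 10, so that it passed the filter only through UTX TCD and its call is not read further.

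*Tox2* spans chr2:163203058-163324172 on the plus strand. The unnamed model *Gm11454*, 56.7 kb upstream, had 18.8 to 31.6 normalized counts in WT and 20.2 to 43.5 in UTX TCD. *Oser1*, 81.6 kb downstream, had 2375 to 2547 in WT and 2030 to 2481 in UTX TCD. Both overlapped between the genotypes and neither was called, so that the call of *Tox2* was not shared by the nearest expressed gene on either side. A GENCODE antisense model, *Gm11802*, overlaps the 3′ end of *Tox*. The sources used here do not say that counting used the strand, so that its reads and those of *Tox* cannot be told apart.

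Chromatin was next examined at the same loci. The ATAC-seq table lists peaks that passed the limit of the comparison between genotypes (every listed FDR is under 0.05). Each has a mean log2 signal per genotype computed by the authors and no value per library. Here the mean log2 signal stands for the log2 of the mean signal, not for a mean of log2 values. The direction of a peak is the UTX TCD mean minus the WT mean, given without an error, and regions outside the list cannot be read as unchanged. Of all listed peaks, 68.8% were more accessible in UTX TCD.

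*Tox* carried 22 listed peaks, of which 16 were more and 6 less accessible in UTX TCD. The split followed position. All 14 peaks inside the gene were more accessible, against 65.6% of listed intron peaks in the whole table. Of the 8 intergenic peaks, which all lie upstream of the gene between 155 and 245 kb from its start site, 2 were more accessible and 6 were less, against 65.2% more accessible among all listed intergenic peaks.

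Of the 14 peaks inside *Tox*, 12 lie in intron 1, which is 148 kb long, and 2 in intron 3, of 8 introns in the transcript used for annotation. The intron 1 peaks cover chr4:6869345-6980582 and the differences run from 0.36 to 1.58, with a median of 0.66. The largest difference of any *Tox* peak was at chr4:6975693-6976093, 14.8 kb from the start site, where the authors' mean log2 signal was 8.16 in WT and 9.75 in UTX TCD, a difference of 1.58 or a factor of 3.00. This peak had close neighbours on both sides with smaller differences. The peak nearest to the start site, chr4:6980182-6980582 at 10.3 kb, differed by 0.58.

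The strongest peak of the locus by mean signal, chr4:6970534-6970934, lies 20.0 kb from the start site. Its authors' mean log2 signal was 11.1 in WT and 11.6 in UTX TCD, a difference of 0.46. The largest gains were therefore not at the most open site. Both intron 3 peaks gained, by 1.56 at chr4:6748290-6748690 and by 0.86 at chr4:6803204-6803604, although they lie 242 and 187 kb from the start site. For comparison, the median difference was 0.69 over all listed peaks that were more accessible. No listed peak lay within 10 kb of the *Tox* start site.

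Upstream of *Tox*, gains and losses alternate. The first upstream peak, chr4:7145724-7146124, gained 1.16 and lies in the noncoding model *Gm33462*. Next comes a run of 3 losses within chr4:7170193-7172928, all inside the noncoding model *Gm33539*, with differences of −0.99, −1.16 and −0.92. The middle peak of this run, chr4:7171458-7171858, had the largest loss at *Tox*, from an authors' mean log2 signal of 6.11 in WT to 4.95 in UTX TCD, or a factor of 0.448.

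Farther out, chr4:7199157-7199557 gained 0.39 and chr4:7206969-7207369 lost 0.53 (UTX TCD minus WT −0.53), both inside the model *Gm33646*. The last pair, at chr4:7234782-7235182 and chr4:7235848-7236248, had differences of −0.60 and −0.80. These 3 noncoding models are not among the symbols of the RNA-seq table and were not measured here. The assignment of all 8 peaks to *Tox* is by nearest start site, and no contact between them and *Tox* was measured.

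*Tox2* carried 3 listed peaks, all more accessible in UTX TCD. The first, chr2:163164470-163164870, is intergenic, 39.5 kb upstream, and had the largest difference, 0.78, with an authors' mean log2 signal of 9.74 in WT and 10.5 in UTX TCD. The second, chr2:163203164-163203564, was annotated as a promoter, 0.822 kb before the start site of the transcript used, and had the highest mean signal of the 3 (10.1 in WT and 10.6 in UTX TCD) with the smallest difference, 0.49. RefSeq also places *Tox2* transcript starts just before this peak. The third, chr2:163253194-163253594, is in intron 2 of 8 and differed by 0.70.

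*Tox2* thus had a listed promoter peak and *Tox* had none. The *Tox2* peaks had between 9.75 and 10.3 in mean log2 signal over both genotypes, against a median of 7.83 over all listed peaks. The *Tox* peaks ran from 5.02 to 11.4. No *Tox2* peak lost signal.

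The peaks of each locus were set beside those of other genes. *Tox* had more listed peaks than most genes: 13 of the 10611 genes with a listed peak had at least 22, and the median gene had 1. At least 3 listed peaks were found for 2835 genes, and in 43.6% of these all peaks were more accessible, as for *Tox2*. *Tox* spans 305 kb and *Tox2* 121 kb.

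Near *Tox2*, a pair of peaks assigned to *Gtsf1l*, 81.5 and 79.1 kb upstream of the gene, also gained (1.16 and 0.50), and a peak assigned to *Jph2*, 77.1 kb downstream, gained 0.36. An intron peak of *Oser1*, 87.7 kb downstream, gained 0.89, although *Oser1* itself was not called. Near *Tox*, a peak assigned to *Nsmaf* lies 11.0 kb beyond the 3′ end, at chr4:6674996-6675396, and had a difference of −0.46, while 2 peaks within *Nsmaf* itself gained (0.37 and 0.32). These peaks were picked after their values were seen, for their place.

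**Figure D2:**
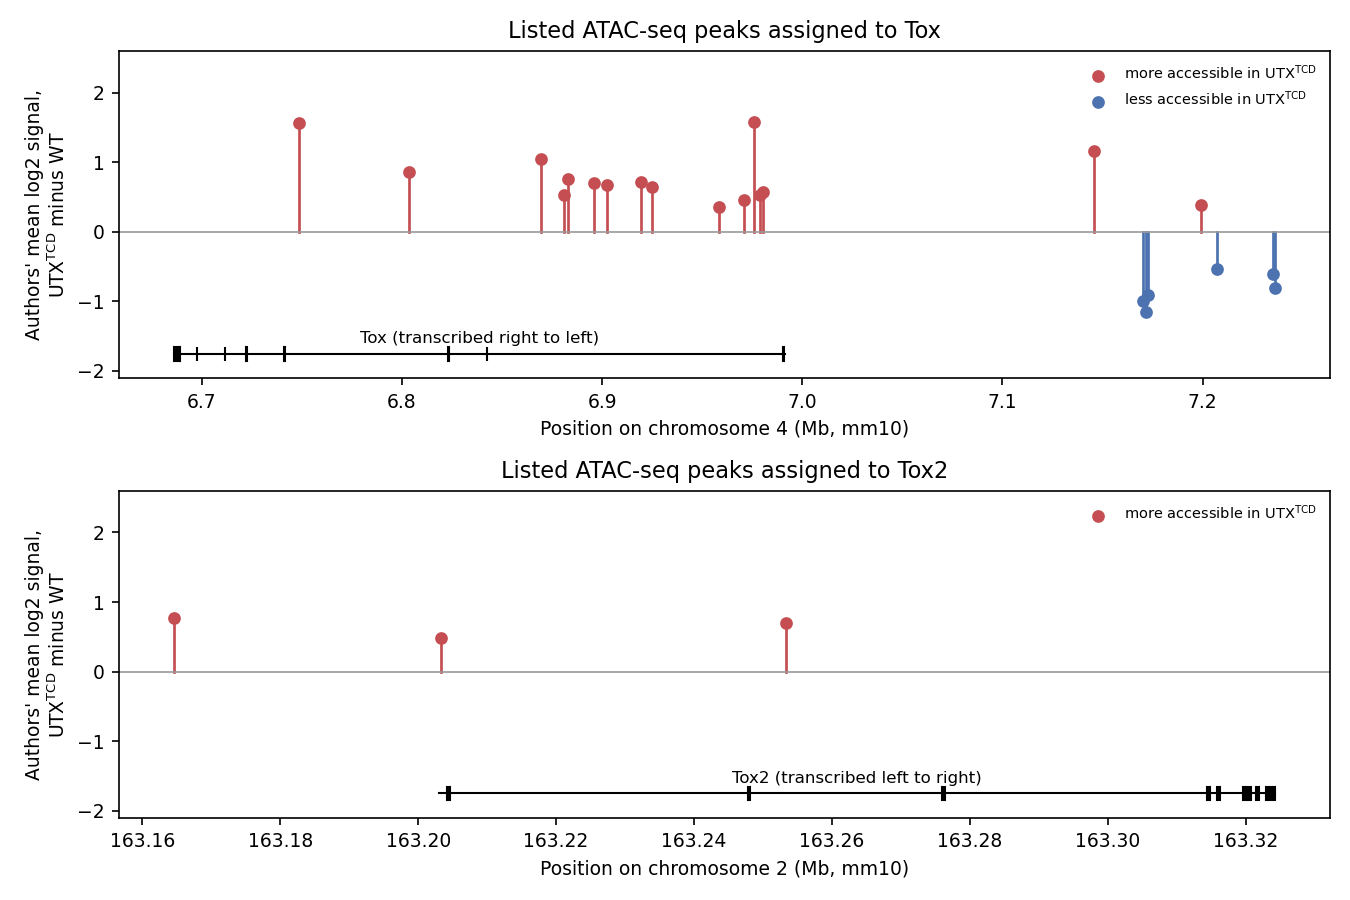
Difference in the authors' mean log2 ATAC-seq signal (UTX TCD minus WT, y axes) of each listed peak against its position in Mb (x axes) for *Tox* (22 peaks) and *Tox2* (3 peaks); black boxes are the exons of an annotated transcript on the line of the gene span. All peaks within both genes point up, and the 6 losses lie upstream of *Tox*, between 180 and 245 kb from its start site.

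Short motifs of factors known from T cells were counted in the 25 peaks on both strands, each within 401 bp. They are given beside their share among 23907 of the 23931 listed peaks of that length. The TCF/LEF core CTTTGA was in 7 of 25 (28%, against 30.6% of listed peaks), the STAT palindrome TTCNNNGAA in 1 (4%, against 11.9%) and the NFAT core TGGAAA in 9 (36%, against 27.6%). The AP-1 site TGANTCA was in 3 (12%, against 12.8%) and the RUNX core TGTGGT in 12 (48%, against 39.7%). TGGAAA and TTCNNNGAA can share bases. These shares lie near the background, and a match is a description of letters, not of binding.

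The matches were spread unevenly. Of the 3 *Tox2* peaks, the intergenic and the intron peak each held 1 TCF/LEF and 1 RUNX match and the promoter peak held no match. Among the *Tox* peaks, chr4:6882630-6883030 in intron 1, which gained 0.75, held the most, with 4 NFAT matches, 1 AP-1 match and 1 RUNX match. The peaks of *Tox* with the largest gain and the largest loss held no match.

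The middle 300 bases of 5 peaks follow, from the GRCm38 (mm10) assembly, plus strand, 5′ to 3′. They are the *Tox* peaks with the largest gain, the largest loss and the most matches, and the 2 *Tox2* peaks outside the promoter, and the peak with the most matches was chosen after the values were seen. Capitals mark matches to the 5 motifs on either strand.
*Tox* intron 1, largest gain, chr4:6975743-6976042: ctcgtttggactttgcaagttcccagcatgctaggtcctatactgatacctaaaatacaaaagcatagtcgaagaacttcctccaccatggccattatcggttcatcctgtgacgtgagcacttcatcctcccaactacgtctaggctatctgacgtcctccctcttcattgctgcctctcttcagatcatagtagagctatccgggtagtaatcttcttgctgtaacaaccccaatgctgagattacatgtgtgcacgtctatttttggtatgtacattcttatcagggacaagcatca
*Tox* upstream, largest loss, chr4:7171508-7171807: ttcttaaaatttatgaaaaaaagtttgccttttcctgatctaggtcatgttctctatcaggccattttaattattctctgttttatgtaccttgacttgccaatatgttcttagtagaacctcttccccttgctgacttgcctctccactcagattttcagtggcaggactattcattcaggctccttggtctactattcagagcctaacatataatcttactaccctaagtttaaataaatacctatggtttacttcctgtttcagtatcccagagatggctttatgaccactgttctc
*Tox* intron 1, most matches, chr4:6882680-6882979: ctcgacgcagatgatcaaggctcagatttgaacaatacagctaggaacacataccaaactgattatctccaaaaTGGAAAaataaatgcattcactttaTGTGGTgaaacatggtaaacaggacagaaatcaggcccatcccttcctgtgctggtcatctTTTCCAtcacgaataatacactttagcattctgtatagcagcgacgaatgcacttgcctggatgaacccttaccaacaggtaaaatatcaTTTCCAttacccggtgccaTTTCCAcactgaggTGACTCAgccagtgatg
*Tox2* upstream, chr2:163164520-163164819: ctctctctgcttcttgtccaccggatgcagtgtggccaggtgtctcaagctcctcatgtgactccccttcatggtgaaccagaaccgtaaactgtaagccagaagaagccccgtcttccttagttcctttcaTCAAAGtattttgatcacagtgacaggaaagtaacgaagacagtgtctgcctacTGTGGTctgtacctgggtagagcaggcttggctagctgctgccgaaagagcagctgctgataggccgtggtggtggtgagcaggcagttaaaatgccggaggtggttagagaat
*Tox2* intron 2, chr2:163253244-163253543: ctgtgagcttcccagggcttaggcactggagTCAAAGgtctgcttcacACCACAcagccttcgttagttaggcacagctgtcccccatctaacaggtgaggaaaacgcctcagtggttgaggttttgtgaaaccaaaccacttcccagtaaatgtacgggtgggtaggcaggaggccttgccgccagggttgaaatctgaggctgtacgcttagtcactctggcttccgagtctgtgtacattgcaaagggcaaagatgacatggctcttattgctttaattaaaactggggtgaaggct
In the third sequence, the last NFAT match (chr4:6882949-6882954) and the AP-1 match (chr4:6882963-6882969) lie closest to each other. In the *Tox2* intron 2 peak the TCF/LEF match (chr2:163253275-163253280) and the RUNX match (chr2:163253292-163253297) are also near neighbours. For the GC content, the *Tox2* peaks printed had 51.7% and 51%, and the *Tox* peaks 45%, 37.3% and 42.7%.

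The genes that act around TOX and TOX2 were read from gene lists, each beside the 17.6% of tested genes called and a median log2 fold change of −0.00018 over all of them. Upstream of *Tox* stand calcineurin and NFAT. Of 7 genes for NFAT factors and calcineurin subunits, 0 were called with limma, edgeR or DESeq2, and the list median was −0.22. Without UTX TCD replicate 3, the calcineurin gene *Ppp3cc* was called lower (−0.54) and the median was −0.25. *Nfatc1*, whose product drives *Tox* in stimulated T cells, had a log2 fold change of −0.22 (adjusted p = 0.00242, limma), *Nfatc2* −0.40 and *Nfatc3* −0.31. The genes of the catalytic calcineurin subunits differed in sign, with *Ppp3ca* at 0.40, *Ppp3cb* at 0.036 and *Ppp3cc* at −0.43, and the regulatory *Ppp3r1* was at −0.22. With no fold limit, 6 of the 7 passed limma by adjusted p, against 40.7% of tested genes, and 6 by unadjusted p under 0.05. The log2 fold change of *Tox* was positive and those of the 3 NFAT genes were negative. These are RNA levels, the activity of NFAT was not measured, and a link between these changes was not tested.

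NR4A, EGR and AP-1 factors and *Irf4*, which act with NFAT and share targets with TOX, included 3 genes called higher and 1 called lower of 10. The list median was 0.29. Without WT replicate 2, 4 were called higher and the median was 0.44. *Egr1* was the most abundant. *Nr4a2* was at 261, 486 and 275 normalized counts in WT and at 927, 837 and 1326 in UTX TCD (log2 fold change 1.63). *Jun* had a log2 fold change of 0.86 and *Irf4* 0.62, while *Fos* was lower, at −0.59. The call of *Irf4* was lost without WT replicate 1 (0.49), without WT replicate 3 (0.51), without UTX TCD replicate 3 (0.52) and with DESeq2. *Nr4a1*, which is often set beside *Tox*, was at 6087, 8290 and 6262 in WT and at 7556, 7923 and 8844 in UTX TCD, and was not called.

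The HBO1 histone acetyltransferase complex, which TOX binds, held no called gene. Of its 10 genes 0 were called with limma, edgeR or DESeq2, and the median was −0.0088. With libraries scaled to the same total it was 0.054, where that of all tested genes was 0.062. The list median was also above 0 without any single library except UTX TCD replicate 2. At an unadjusted p under 0.05, 4 of the 10 passed limma. *Kat7*, the catalytic subunit, was at 18836, 18499 and 19109 normalized counts in WT and at 18573, 18776 and 18131 in UTX TCD. The levels of this enzyme overlapped between the genotypes while those of *Tox* did not.

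Inhibitory receptors and ectoenzymes, the usual companions of *Tox* under chronic antigen, were lower in UTX TCD where they were called. Of 10 genes, 4 were called lower (including *Havcr2*, which is set aside below) and 0 higher, with a list median of −0.54. The calls of *Cd160* and *Cd38* held without each single library (−2.07 to −2.37 and −0.93 to −1.53), but the count and the median moved. Without WT replicate 2, 2 of 8 tested were lower and 1 higher, with a median of −0.11. Without WT replicate 1 or without WT replicate 3, 2 of 9 were lower (medians −0.65 and −0.59), and without UTX TCD replicate 2 the median was −0.34. *Cd160* was at 3190, 3119 and 3409 normalized counts in WT and at 610, 642 and 921 in UTX TCD (log2 fold change −2.18, adjusted p = 7.83e-06, limma). *Cd38*, an NAD-consuming ectoenzyme, had −1.21. *Havcr2* (TIM-3), counted among the 4, was at 21.7 normalized counts or less in every library, passed the filter of 10 only through WT and was not tested when any WT library was left out, so that its call is not read further. *Pdcd1* (PD-1) had −0.69, and its call was lost without any single library except UTX TCD replicate 3 (−0.50 to −0.77), with edgeR and with libraries scaled to the same total. *Btla*, the most abundant of the list, was not called. *Entpd1* encodes the gate marker CD39 and *Slamf6* the gate marker Ly108, so that neither is read as an outcome, although both count in the medians of their lists.

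Among 10 progenitor factors, 2 were called higher, *Bach2* (0.59) and the chemokine receptor gene *Cxcr5* (1.45), and 0 lower, with a median of 0.32. Without WT replicate 2, 4 were called higher (median 0.43), and without UTX TCD replicate 3 the median was 0.21. *Tcf7*, the gene of TCF1 and the most abundant of the list, was at 244276, 234809 and 227810 normalized counts in WT and 229604, 220872 and 221558 in UTX TCD and was not called. Of 12 effector genes, 9 were tested, with *Tbx21* (T-bet, 1.16) called higher and *Gzma* (granzyme A, −1.06) lower. Without WT replicate 2, 2 were called lower, with *Gzmb* added, and without UTX TCD replicate 2, 2 were called higher, with *Fasl* added. The median of the tested effector genes was 0.045, and its sign turned without WT replicate 3 (−0.13) and without UTX TCD replicate 3 (−0.0039), while it was 0.18 without WT replicate 2. These called shares lie near that of all tested genes.

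The Tfh genes linked to TOX2 split. Of 9 genes, 7 were tested, 2 were called higher and 3 lower, with a median of −0.33. *Maf* had the largest change, from 297, 369 and 288 normalized counts in WT to 2094, 2019 and 2346 in UTX TCD (log2 fold change 2.76), and *Cxcr5* was the other gene called higher. *Icos* (−0.73), *Pou2af1* (−1.15) and *Pdcd1* were called lower. *Bcl6*, the central Tfh factor, had 0.15 and was not called. *Tox2* was therefore higher together with *Maf* and *Cxcr5* and against *Icos* and *Pou2af1*.

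Of 10 factors of NK cell and innate lymphoid cell development, a setting in which both TOX proteins act, 4 of the 9 tested were called higher and 1 lower, with a median of 0.24. *Tbx21*, *Eomes* (0.62) and *Il2rb* (0.63) were among those higher, and *Nfil3*, a factor that acts before *Tox* in these lineages, was lower (−0.72). The call of *Eomes* was lost without UTX TCD replicate 3 (0.46).

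Of 10 genes of positive selection and the CD4 lineage, 8 were tested, with a median of −0.021, or 0.0040 without UTX TCD replicate 3. With libraries scaled to the same total the median was 0.041, where that of all tested genes was 0.062. In this list 2 genes were called lower. They were *Zbtb7b* (−1.85), the CD4 fate factor whose induction needs TOX in the thymus, and *Cd4* (−0.74). Both were low, at 104 normalized counts or less, and the call of *Cd4* was lost when any library other than UTX TCD replicate 2 was left out (−0.54 to −0.81), without the filter on low values, with DESeq2 and with libraries scaled to the same total. Among 19 other HMG-box genes of lymphocytes, *Sox4* (0.90) and *Sox13* (1.55) were called higher and *Tcf7l2* lower (−1.62), with a median of 0.045, or −0.0036 without UTX TCD replicate 3. *Tcf7* is the most abundant HMG-box gene of that list too.

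**Figure D3:**
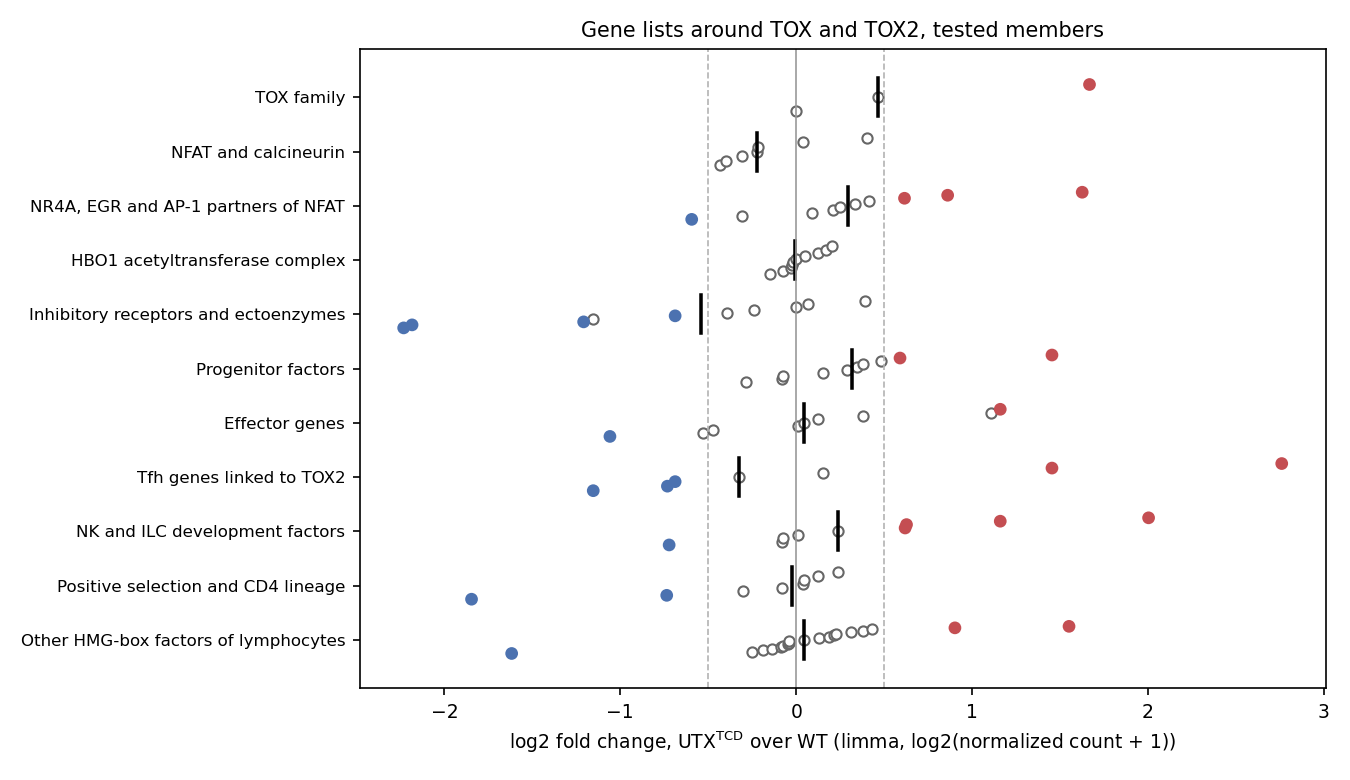
Log2 fold change of UTX TCD over WT (x axis) for the tested members of 11 gene lists (y axis); filled points were called (red higher, blue lower), open points were not, black bars are list medians and dashed lines mark the fold limit of 0.5. *Tox2* (1.66) lies far to the right in the TOX family while *Tox* (0.46) lies just inside the limit, and the called inhibitory receptor and ectoenzyme genes all lie to the left.

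Cells other than CD8+ T cells also use *Tox* and *Tox2*, so markers of these are given beside them. For NK cells and innate lymphoid cells, 3 of 5 markers were tested, 1 was called higher and 1 lower (*Kit*), and the summed level was 3095, 4063 and 3218 normalized counts in WT and 2560, 2749 and 3951 in UTX TCD. *Kit* was the most abundant, and *Ncr1* and *Il1rl1* were at 7.63 or less. For B cells the sum was 2951, 2437 and 2800 in WT and 1221, 1082 and 1000 in UTX TCD, with *Cd79b* the most abundant and called lower. *Ms4a1* (CD20) was called higher at 73.0 normalized counts or less, and that call was lost without WT replicate 1 (1.38), WT replicate 3 (1.60), UTX TCD replicate 2 (1.84) or UTX TCD replicate 3 (1.21).

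For CD4+ T cells the sum was 475, 373 and 442 in WT and 373, 350 and 344 in UTX TCD, most of it *Foxp3*. Of the 3 markers, 2 were called lower, *Zbtb7b* and *Cd4*, and the call of *Cd4* was lost under the settings given above. Myeloid and dendritic cell markers summed to 932, 939 and 763 in WT and 1197, 945 and 1128 in UTX TCD, most of it *Cd68*. Of 4 tested, only *Csf1r* was called, lower, and it passed the filter of 10 only through WT. Of 3 stromal markers, 2 were tested and 0 were called with limma, edgeR or DESeq2 (1 at an unadjusted p under 0.05 in limma). Their summed level was 31630, 29620 and 31793 in WT and 37538, 37676 and 33523 in UTX TCD. Nearly all of it was *Pecam1*, with means of 30622 in WT and 35787 in UTX TCD. *Col1a1* had means of 390 and 456, and *Pdpn* was at 6.75 or less. The sum is therefore not read as a level of stromal cells. The part of other cells in the levels of *Tox* and *Tox2* was not tested.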

How the data were processed

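The authors aligned mRNA-seq reads to mm10 with HISAT2 2.2.1. They obtained gene counts from featureCounts, scaled them by DESeq2 size factors and deposited these values (a signal, in normalized counts). Dividing by the step of each library gave whole reads for 100% of values (within 0.01 read). For ATAC-seq (Omni-ATAC, Bowtie2, MACS2), the authors called differential peaks with DiffBind and annotated them with HOMER. They deposited log2 mean signals per genotype and p-values with FDR, and the peak count and direction were taken from the log2 means. A shift of reads for the transposase is not given in the sources used here. The fold changes and p-values of the authors' comparisons were not used, and their FDR column was read only to test the filter of the file.

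Genes with a mean of at least 10 normalized counts (14459 of 25860) were fitted by genotype with limma 3.58.1 (lmFit, eBayes with trend) on log2(value + 1), with Benjamini-Hochberg adjustment. A fold change on this scale understates changes of low genes. The fit was tested on simulated data. Alternatives were pseudocounts of 0.5 and 8, other filters, scalings and fold limits, edgeR 4.0.16 and DESeq2 1.42.0 on recovered reads, a replicate block, and each library left out. The count tests called 2541 (edgeR) and 2422 (DESeq2) genes. R 4.3.3, Python 3.11.15 and scipy 1.17.1 were used, with the RefSeq annotation and genome of GRCm38.p6. Of 140 list entries all matched a symbol, and a called list member is not reported here. The genes named are *Tox*, *Tox2*, paralogs, *Kdm6a*, *Uty*, called and most abundant list members, 5 nearest profiles, and nearest expressed neighbours; the peaks named are those with the largest and smallest difference, the highest signal and the smallest distance to the start site, and other genes and peaks were named after their values were seen. *Tox*, *Tox2* and the lists were chosen with earlier results of these data known. The methods state 3 biological replicates for ATAC-seq. The paper gives n = 3 per group of mice for both assays. It does not say whether each RNA-seq library came from a separate animal or a pool, and p-values measure only the spread between these libraries. Intervals cover counting error only.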

Additional observations from a re-analysis of the deposited data

How the results depend on the processing

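*Tox2* was called under each of the 17 alternatives, with log2 fold changes from 1.57 to 1.73, and *Tox* kept its direction under each, from 0.44 to 0.53. Over all 8 results, 66 of 72 alternatives were rated the same, 6 were not and 0 reversed. For the log2 fold changes the rating rests on the direction and the call, and for the log2 ratio difference on the direction alone. Counts of genes and peaks have neither, and smaller moves of a count were rated the same. For the *Tox* peaks more accessible, 16 to 13 was rated the same and 16 to 9 as moved. *Tox* passed the call rule only with libraries scaled to the same sum (0.53) and, by construction, with no fold limit (0.46). The same-sum scaling moves all genes alike, and the median of all tested genes went from −0.00018 to 0.062. Having no fold limit also raised the genes called from 2538 to 5887. Leaving out single libraries gave 0.44 to 0.48 for *Tox*, 1.57 to 1.73 for *Tox2*, 2162 to 2572 genes called, and 1.11 to 1.25 for the log2 ratio difference, whose exact permutation p was 0.20 each time, the smallest that 2 against 3 libraries allow. With the replicate number as a block, the adjusted p was 0.000466 for *Tox* and 0.000784 for *Tox2* (limma), and 2474 genes were called. The log2 fold changes (0.46 and 1.66) and the log2 ratio difference (1.20) could not move, because every replicate number occurs in both genotypes. Other fold limits likewise leave the log2 fold changes as they are. These alternatives bear only on p-values and calls. Same-numbered libraries share only a number: the correlations of their deviations were 0.31, −0.20 and 0.090, and not every library correlated best with its own number.

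Peaks within 100 kb of the start site left 9 more and 0 less accessible for *Tox*, and peaks in or within 5 kb of the gene body left 14 and 0. The losses among the peaks assigned to *Tox* thus all lie far upstream. A nearer peak at chr4:6674996-6675396, 11.0 kb beyond its 3′ end, had a difference of −0.46 but was assigned to *Nsmaf*. The 3 *Tox2* peaks were 2 with a difference over 0.5. Depth limits *Tox2*: the half-width of its 95% Poisson interval was 24.9% in WT replicates 1 and 2 and 21.5% in UTX TCD replicate 1. Peak means carry no error.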
